A study of Mus musculus with 10 samples.

Results

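A set of 10 genes used to recognize the resident macrophages of the heart was examined in left ventricular tissue: Adgre1, Csf1r, Cd68, Cd163, Mrc1, Lyve1, Timd4, Mertk, Folr2 and Trem2. They were taken by symbol from 29564 genes listed, and all 10 passed the filter that left 13297 genes for testing. Adgre1 is listed in the data under its older symbol, Emr1. Bulk polyadenylated RNA was sequenced from 5 mice of the control group (TT-583 to TT-587) and 5 of the HFD+mTAC group (TT-588 to TT-592), each mouse being 1 library. All 10 mice were male wild-type (WT) C57BL6 animals and are labelled as given vehicle. The daily schedule stated for HFD+mTAC mice is 10 mL/kg by mouth over 6 to 9 weeks, and no separate daily schedule is stated for control mice. The paper also describes hearts collected after a single dose of vehicle in other experiments. As young adults, HFD+mTAC mice had the aortic arch moderately narrowed by surgery (moderate transverse aortic constriction, mTAC), so that the left ventricle pumped against a higher pressure, and were fed a high-fat diet (HFD) from then on. Control mice were not operated on and ate standard chow. The pair of treatments models heart failure with preserved ejection fraction, and since no mice with the diet alone or the operation alone were in these libraries, the share of each cannot be told apart. The question addressed here is whether the transcripts of resident macrophages differed between the hearts of the groups.

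Macrophages live throughout the healthy heart, where they take up dying cells and discarded cell material and sit close to vessels and cardiomyocytes. Part of the population is seeded before birth and renews itself locally, and TIMD4, LYVE1 and FOLR2 are surface proteins by which these resident cells are commonly recognized. Another part is replaced by blood monocytes, which carry CCR2. Macrophages depend on signalling through the receptor CSF1R and carry the general macrophage proteins F4/80 (the product of Adgre1) and CD68.

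None of the 10 genes differed between HFD+mTAC and control mice after adjustment over all genes tested. Counting 6 genes with a higher and 4 with a lower mean estimate in HFD+mTAC mice, the log2 fold changes ran from -0.55 for Timd4 to 0.30 for Cd163, with a median of 0.10 beside 0.00138 over all genes tested. By edgeR's quasi-likelihood test 0 of the 10 had an adjusted p under 0.05, where 0.0602% of all genes tested did (8 of 13297). At an unadjusted p under 0.05 the count was also 0 of 10, against 8.27% of all genes, and in 0 of 10 genes did the mice of the groups fail to overlap, against 1.96% of all genes. DESeq2 likewise called 0 of the 10 and had 0 of them at an unadjusted p under 0.05. With TPM rescaled in each mouse to the same total over the tested genes, limma was run on log2(TPM + 1). It called 0 and had 1 at an unadjusted p under 0.05, which was Timd4 (adjusted p = 0.733). Because the tissue was sequenced whole, fewer macrophages and less RNA per macrophage cannot be told apart in any of these values.

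The libraries held 34.2 to 53.7 M estimated counts each, with 12.7 to 21.1 M on nuclear protein-coding genes. Control mice TT-583 and TT-584 stood apart from the other 8 libraries. Mitochondrial transcripts took 43.8 to 44.0% of their counts, against 46.4 to 52.7% elsewhere, and their average transcript lengths were the shortest (median log2 ratio to the geometric mean of all mice -0.11 and -0.09, against -0.05 to 0.09). Values without both are therefore given beside the results they change. The tissue carried its defining markers, with summed cardiomyocyte markers at 10190 to 13580 TPM in control mice and 9062 to 12370 TPM in HFD+mTAC mice. Levels per mouse are given below as CPM, the counts of a gene scaled to a common library total over the tested genes after TMM normalization. TPM values, which correct for transcript length, are used where genes are set against each other and for sums of markers. As deposited they are scaled over all genes, mitochondrial ones included. The tested genes summed to 167300 and 182800 TPM in TT-583 and TT-584, against 121100 to 161700 TPM elsewhere. Comparisons of deposited TPM between the groups carry that difference.

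Csf1r, on chromosome 18 (61100598 to 61132149, plus strand, GRCm38), encodes the receptor for CSF1 and IL-34 on which macrophages depend for survival. It stood at 48.3, 45.5, 35.4, 37.1 and 36.3 CPM in the control mice in the order of their numbers and at 49.3, 47.6, 49.3, 46.5 and 37.8 CPM in the HFD+mTAC mice, again in the order of their numbers. In the HFD+mTAC group 4 mice lay close together and TT-592 lay below them, while in the control group TT-583 and TT-584 lay at the level of the high HFD+mTAC mice and the other 3 lay below every HFD+mTAC mouse. The means were 40.5 ± 5.92 CPM (SD, n = 5) and 46.1 ± 4.79 CPM (SD, n = 5), a log2 fold change of 0.19 (SE 0.11, 95% interval -0.06 to 0.43, adjusted p = 0.72 by edgeR). A two-sided exact permutation test gave p = 0.0873 on CPM and 0.587 on TPM as deposited, where 5 mice against 5 cannot give less than 0.00794. With TPM rescaled in each mouse to the tested genes, limma on log2(TPM + 1) gave 0.27 (unadjusted p = 0.0503, adjusted p = 0.749). With transcript lengths as an offset, edgeR gave 0.26 (unadjusted p = 0.0482, adjusted p = 0.665). Without TT-583 and TT-584, the control mean was 36.3 ± 0.889 CPM (SD, n = 3) and the log2 fold change 0.34 (SE 0.11, 95% interval 0.10 to 0.59). The unadjusted p by edgeR was then 0.0103 and the adjusted p 0.766.

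Adgre1, on chromosome 17 (57358691 to 57483527, plus strand), encodes F4/80, an adhesion receptor used as a general macrophage marker in mice. Its levels were 12.7, 12.6, 7.94, 8.81 and 8.02 CPM in the control mice and 11.7, 10.9, 9.46, 7.99 and 7.98 CPM in the HFD+mTAC mice, in the order of their numbers. TT-583 and TT-584 had the highest values of all 10 mice, and the other 3 control mice lay among the lower HFD+mTAC mice. The log2 fold change was -0.06 (SE 0.18, 95% interval -0.46 to 0.33, adjusted p = 0.959 by edgeR) and turned to 0.22 (95% interval -0.18 to 0.61, adjusted p = 0.976) without those libraries.

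Cd68, on chromosome 11 (69664213 to 69666153, minus strand), encodes a glycoprotein of lysosomes and endosomes that is abundant in macrophages. Control mice lay between 13.6 and 16.7 CPM and HFD+mTAC mice between 12.9 and 22.1 CPM. Mouse TT-590 alone lay above every control mouse, and without it the log2 fold change of 0.14 (SE 0.14, 95% interval -0.16 to 0.44, adjusted p = 0.859) became 0.00784.

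**Figure D1:**
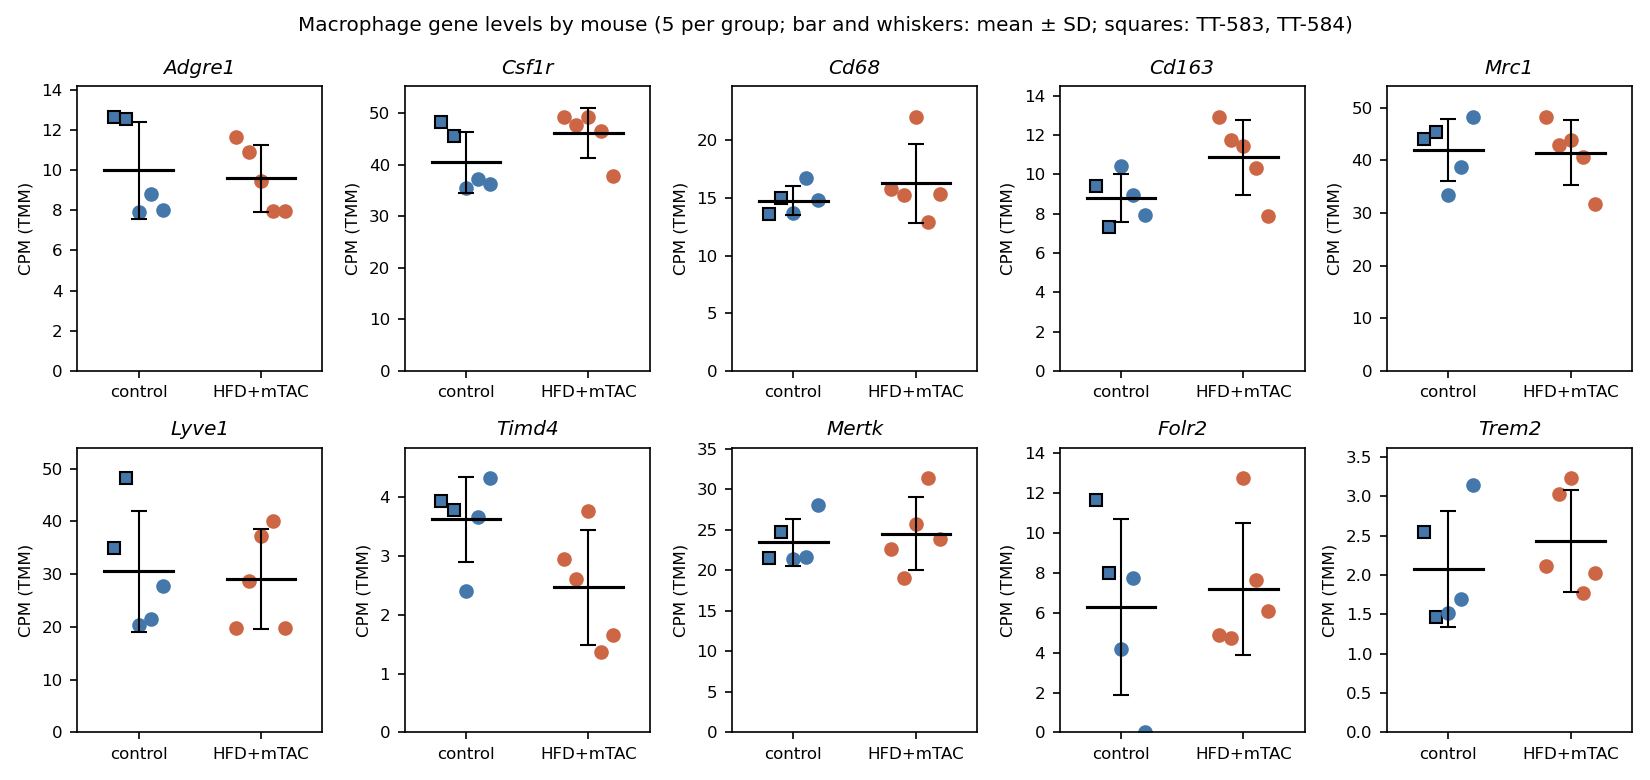
Level of each of the 10 genes in each mouse (CPM after TMM normalization, linear axes from 0), control mice in blue and HFD+mTAC mice in orange, with the group mean and SD (n = 5 each). Squares mark TT-583 and TT-584, whose Adgre1 values are the highest of the 10 mice. The groups overlap for every gene.

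Of the genes tied to resident cells, Timd4 had the lowest estimate. Timd4, on chromosome 11 (46810800 to 46844332, plus strand), encodes a receptor for phosphatidylserine, the lipid that dying cells expose. It was measured at 3.94, 3.78, 2.40, 3.67 and 4.33 CPM in the control mice and at 2.95, 2.60, 3.77, 1.37 and 1.66 CPM in the HFD+mTAC mice. The range of the HFD+mTAC mice thus reached below that of the control mice, with TT-591 and TT-592 lower than any control mouse, while the other 3 lay within the control range. These values rest on 49 to 82 estimated counts per control mouse and 20 to 49 per HFD+mTAC mouse. Means were 3.62 ± 0.727 and 2.47 ± 0.976 CPM (SD, n = 5 each), and the log2 fold change was -0.55 (SE 0.28, 95% interval -1.17 to 0.06, adjusted p = 0.657 by edgeR). The two-sided exact permutation test gave p = 0.0873 on CPM and 0.0397 on TPM as deposited, neither adjusted over genes. The higher TPM totals of TT-583 and TT-584 enter the second value. With TPM rescaled to the tested genes, limma gave -0.28 on log2(TPM + 1) (unadjusted p = 0.0425). On log2(TPM + 0.1) it gave -0.57 (unadjusted p = 0.0529). The Timd4 estimate was negative in all 21 alternative analyses, at -0.75 to -0.28, and the smallest adjusted p among them was 0.552. Without TT-583 and TT-584 it was -0.48 (95% interval -1.27 to 0.30, adjusted p = 0.964).

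Lyve1, on chromosome 7 (110850607 to 110863239, minus strand), encodes a hyaluronan receptor found on resident macrophages along vessels and also on lymphatic endothelium. It spread more widely between mice of a group than Csf1r did, at 35.0, 48.2, 20.4, 21.5 and 27.8 CPM in the control mice and 19.9, 28.7, 37.2, 40.0 and 19.8 CPM in the HFD+mTAC mice. Each group held mice at its low end and mice with far higher levels, so that the groups overlapped over most of their ranges. The log2 fold change was -0.08 (SE 0.26, 95% interval -0.65 to 0.50, adjusted p = 0.966), and 0.32 (95% interval -0.22 to 0.87, adjusted p = 0.965) without TT-583 and TT-584, the mean of which was 41.6 CPM. The summed lymphatic endothelial markers (Prox1, Flt4, Mmrn1, Pdpn, Ccl21a and Reln) stood at 13.3 to 15.8 TPM in control mice and 9.14 to 14.8 TPM in HFD+mTAC mice. On CPM the sums were 166.3 to 222.3 in control mice and 177.6 to 205.7 in HFD+mTAC mice. Mmrn1 was listed at 0 in a control mouse and in no HFD+mTAC mouse, and all of these markers passed the filter. Lymphatic transcripts were thus present in the tissue, and their part in the Lyve1 values was not tested beyond the relation given below.

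Folr2, on chromosome 7 (101839988 to 101857194, minus strand), encodes a folate receptor of resident macrophages. Its level was 11.7, 7.99, 4.16, 7.75 and 0 CPM in the control mice and 4.87, 4.72, 12.8, 7.65 and 6.08 CPM in the HFD+mTAC mice. TT-587 was listed at 0 counts, under a floor of 3 counts that corresponds to 0.236 CPM in that library, whereas the other 9 mice had 75.6 to 242.6 estimated counts. The log2 fold change was 0.17 (SE 0.63, 95% interval -1.19 to 1.54, adjusted p = 0.967) and became -0.14 without TT-587, when the control mean was 7.89 ± 3.06 CPM (SD, n = 4) and the exact permutation test gave p = 0.73. It was -0.13 without TT-590, the highest HFD+mTAC mouse, and 0.83 (95% interval -0.84 to 2.51, adjusted p = 0.98) without TT-583 and TT-584. The direction for Folr2 thus depended on single libraries of both groups. Folr2 estimates were whole numbers, to within 0.0005 counts, in 1 of 10 mice, the mouse at 0, whereas those of Cd68, Mrc1, Timd4 and Mertk were whole in 10 of 10. Values that are not whole arise where salmon divides reads between transcripts of different genes. Tyrobp, the adaptor through which TREM2 signals and named here after its values were seen, showed a like pattern, with 0 counts in TT-583 and TT-589 and 73.2 to 212.9 estimated counts in the other 8 mice. It did not pass the filter, and the cause of these zeros was not tested.

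Cd163, on chromosome 6 (124304656 to 124330527, plus strand), encodes the scavenger receptor that takes up haemoglobin bound to haptoglobin. It had the highest estimate of the 10 genes, from 9.41, 7.30, 10.4, 8.95 and 7.94 CPM in the control mice and 12.9, 11.7, 11.5, 10.3 and 7.86 CPM in the HFD+mTAC mice. Of the 5 HFD+mTAC mice, 3 lay above every control mouse, and TT-592 lay near the lowest of them. Means were 8.81 ± 1.23 and 10.9 ± 1.92 CPM (SD, n = 5 each), and the log2 fold change was 0.30 (SE 0.16, 95% interval -0.04 to 0.64, adjusted p = 0.666 by edgeR). The two-sided exact permutation test gave p = 0.103 on CPM and 0.579 on TPM as deposited. With transcript lengths as an offset, edgeR gave a log2 fold change of 0.23 (unadjusted p = 0.195). Cd163 estimates were whole numbers in 0 of 10 mice.

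Mrc1, on chromosome 2 (14229392 to 14332057, plus strand), encodes the mannose receptor CD206, also a scavenger receptor. Control mice lay between 33.3 and 48.1 CPM and HFD+mTAC mice between 31.6 and 48.3 CPM, nearly the same range. The means were 41.9 ± 5.93 and 41.4 ± 6.15 CPM (SD, n = 5 each), and the log2 fold change was -0.02 (SE 0.13, 95% interval -0.29 to 0.26, adjusted p = 0.988). It was 0.05 without TT-583 and TT-584 and -0.23 when transcript lengths entered the fit.

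Mertk and Trem2 encode receptors for dead cells and lipids. Mertk, on chromosome 2 (128698956 to 128802894, plus strand), encodes the kinase through which macrophages engulf dying cells, including cardiomyocytes. Control mice had 21.6, 24.7, 21.4, 21.7 and 28.1 CPM and HFD+mTAC mice 22.7, 19.1, 25.7, 31.4 and 23.9 CPM. The lowest and the highest mouse were both HFD+mTAC mice, and the log2 fold change was 0.06 (SE 0.13, 95% interval -0.23 to 0.36, adjusted p = 0.939). With transcript lengths in the fit it was -0.01.

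Trem2, on chromosome 17 (48346401 to 48354147, plus strand), encodes a lipid-sensing receptor that is high in macrophages laden with lipid. Its estimated counts were low, at 24 to 53 per mouse. Control mice lay at 2.54, 1.47, 1.52, 1.69 and 3.15 CPM and HFD+mTAC mice at 2.11, 3.02, 3.23, 1.78 and 2.03 CPM. Of the control mice, 3 lay below every HFD+mTAC mouse, and the other 2 lay within their range. The log2 fold change was 0.24 (SE 0.29, 95% interval -0.38 to 0.86, adjusted p = 0.896).

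**Figure D2:**
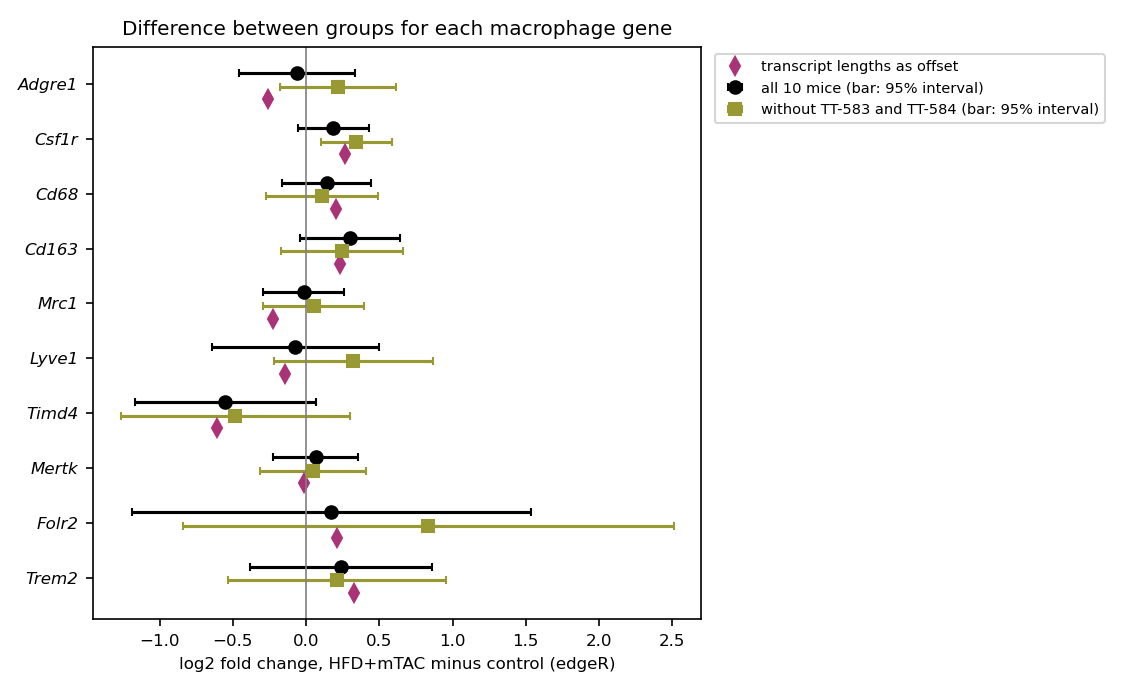
Log2 fold change of each gene, HFD+mTAC minus control, by edgeR with all 10 mice (black circles, bars are 95% intervals), without TT-583 and TT-584 (green squares, bars are 95% intervals) and with transcript lengths in the fit (purple diamonds). With all 10 mice every interval includes 0, and without both libraries the interval of Csf1r, 0.10 to 0.59, lies above 0.

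Without TT-583 and TT-584, 9 of the 10 genes had a higher estimate in HFD+mTAC mice and Timd4 a lower one, and the median log2 fold change was 0.21. Adgre1, Mrc1 and Lyve1 were the genes whose sign turned. Again 0 of the 10 passed the adjusted threshold and 1, Csf1r, had an unadjusted p under 0.05. Over all genes tested in that setting, 4 of 13297 were called and the median was -0.00129. The share of all genes at an unadjusted p under 0.05 was not counted without TT-583 and TT-584. Since these mice were both in the control group, how far they differed from the others because of their libraries was not tested.

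Per transcript length, Cd68 was the most abundant of the 10 genes, at 3.91 ± 1.04 TPM (SD over 10 mice), followed by Csf1r at 2.01 ± 0.368 TPM. Folr2 (1.39 ± 0.779 TPM), Mrc1 (1.17 ± 0.358 TPM), Lyve1 (0.888 ± 0.422 TPM) and Mertk (0.803 ± 0.199 TPM) followed. Trem2 had 0.422 ± 0.109 TPM, Adgre1 0.205 ± 0.0891 TPM, Cd163 0.139 ± 0.0260 TPM and Timd4 0.133 ± 0.0538 TPM. Cd68 lay above Csf1r in 10 of 10 mice and Adgre1 above Cd163 in 10 of 10. Folr2 lay above Mrc1 in 5 mice of 10, Lyve1 above Mertk in 5 and Cd163 above Timd4 in 5, so that these neighbours did not differ beyond their spread. The order depended on the lengths used. The deposited average length was 6044 to 8815 bases for Adgre1, 9200 to 11627 for Cd163 and 4496 to 6240 for Lyve1, against 3238, 4443 and 2893 bases for the longest coding transcript of each gene in GENCODE M21, and for Cd68 it was 445 to 808 against 1230 bases. On CPM per kilobase of that transcript, Cd68 was still highest at 12.6 and Timd4 lowest at 1.40, but Lyve1 came next after Cd68 at 10.3, ahead of Csf1r at 9.21, and Adgre1 at 3.03 and Cd163 at 2.21 came ahead of Trem2 at 2.07.

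The 10 genes did not follow each other closely from mouse to mouse. Over the 10 mice, the correlation of a gene with the mean of the other 9 was 0.784 for Csf1r, 0.675 for Mrc1 and 0.511 for Adgre1, but 0.196 for Cd163, 0.181 for Folr2 and -0.101 for Mertk. These are descriptions, and the genes share each mouse's library and depth. The value for Folr2 includes TT-587, listed at 0 counts, and was not computed without that mouse. The highest mean standardized level was that of HFD+mTAC mouse TT-590 (0.904), which had the highest value in 3 of the 10 genes, and the lowest were those of control mouse TT-585 (-0.798) and HFD+mTAC mouse TT-592 (-0.744). The lowest means thus came from both groups. In the control group the means above 0 were those of TT-583 (0.394) and TT-584 (0.262). In the HFD+mTAC group they were those of TT-588 (0.311), TT-589 (0.175) and TT-590.

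**Figure D3:**
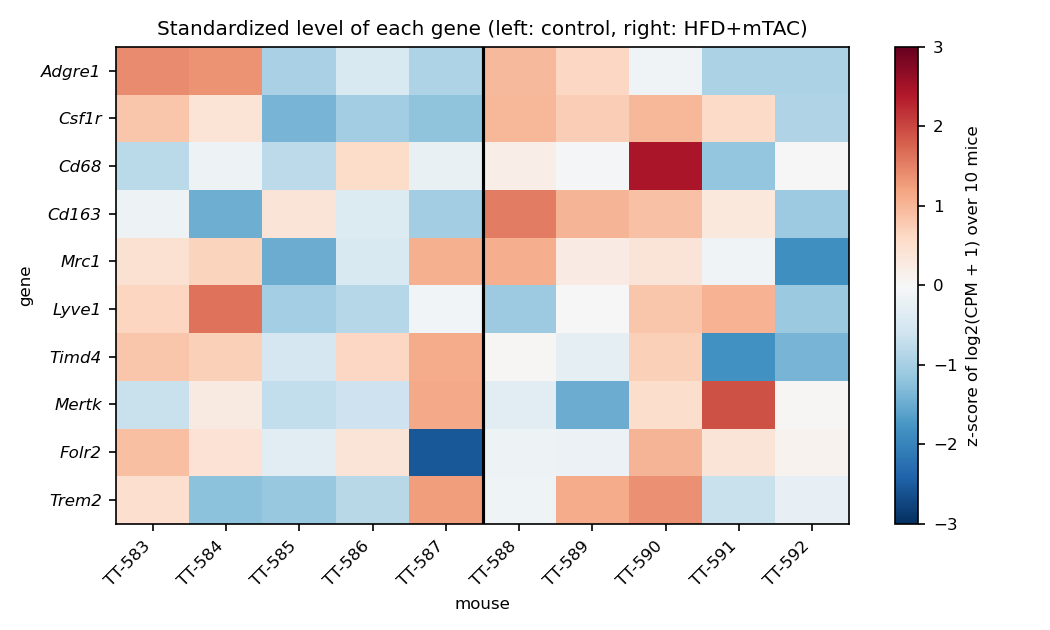
Standardized level (z-score of log2(CPM + 1) over the 10 mice) of each gene by mouse, control mice left of the line and HFD+mTAC mice right of it, red for high and blue for low. TT-590 is above the mean in most genes, TT-585 and TT-592 are below it in most, and the dark blue cell is Folr2 in TT-587, at 0 counts.

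A family of 8 relations between genes were tested over the 10 mice on log2(CPM + 1), and none passed Benjamini-Hochberg adjustment. The closest was that of Csf1r with Adgre1, with Pearson's r = 0.705 (permutation p = 0.0292, adjusted p = 0.234) and Spearman's rho = 0.673 (permutation p = 0.0389, adjusted p = 0.311). Without the 2 mice farthest from the median of Csf1r, TT-585 and TT-587, r was 0.572. Cd68 with Trem2 gave r = 0.443 (permutation p = 0.202, adjusted p = 0.645), which went to -0.0717 without TT-590 and TT-591 and so rested on those mice. Lyve1 with Folr2 gave r = 0.303 (permutation p = 0.445, adjusted p = 0.67), Timd4 with Lyve1 0.198 (permutation p = 0.574, adjusted p = 0.67) and Cd163 with Mrc1 0.192 (permutation p = 0.586, adjusted p = 0.67). For Lyve1 with Folr2, rho was 0.539 (permutation p = 0.112, adjusted p = 0.448). Both values include the 0 of Folr2 in TT-587. The r of Lyve1 with the mean of the lymphatic endothelial markers was -0.289 (permutation p = 0.456, adjusted p = 0.67), with rho = 0.0909. It turned to 0.128 without TT-584 and TT-591, the mice farthest in Lyve1, and to 0.489 without TT-583 and TT-584, so that its sign rested on those mice. The marker mean also includes the 0 of Mmrn1 in a control mouse. The r of Timd4 with Lyve1 was likewise 0.527 without TT-591 and TT-592 and -0.0578 without TT-583 and TT-584. The r of Mrc1 with the mean of the endothelial markers was 0.412 (permutation p = 0.242, adjusted p = 0.645), and 0.152 without TT-585 and TT-592. Csf1r with Mertk gave r = 5.44e-05 and rho = 0.0182.

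As a description with no test, each other gene was expressed as the log2 ratio of its TPM to that of Csf1r per mouse. Csf1r itself had a log2 fold change of 0.19 by edgeR, and its own difference enters every ratio. Whether Csf1r follows the amount of macrophage RNA was not tested. Timd4 had the largest difference, with a ratio of -3.55 ± 0.32 in control mice and -4.50 ± 0.50 in HFD+mTAC mice (SD, n = 5 each), a difference of -0.95. Control mice ran from -4.02 to -3.14 and HFD+mTAC mice from -5.16 to -3.86, so that the ranges overlapped, with TT-585 the lowest control mouse and TT-590 the highest HFD+mTAC mouse. On estimated counts in place of TPM the difference was -0.82. The ratio of Mrc1 was -0.58 ± 0.37 and -1.06 ± 0.28 and that of Adgre1 -3.15 ± 0.38 and -3.61 ± 0.12, a difference of -0.47 for each. On estimated counts these differences were -0.21 and -0.24, and without TT-583 and TT-584 they were -0.41 for Mrc1, -0.20 for Adgre1 and -0.94 for Timd4. The other differences were between -0.36 for Lyve1 and 0.07 for Trem2, and the groups overlapped for all 9 ratios.

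Other genes of macrophage identity also had estimates on both sides of 0. Of 18 other macrophage genes, 8 had a higher and 10 a lower estimate, with a median log2 fold change of -0.05 and 0 called, and 1 at an unadjusted p under 0.05. Without TT-583 and TT-584, 12 were higher and 6 lower, with a median of 0.09, 0 called and 3 at an unadjusted p under 0.05, a threshold at which all genes were not counted in that setting. C1qa, C1qb and C1qc, which encode the chains of complement C1q that tissue macrophages make, had log2 fold changes of -0.01, 0.00 and 0.03. Cybb, the catalytic subunit of the phagocyte NADPH oxidase, had 0.41 (SE 0.18, adjusted p = 0.597). Lyz2, lysozyme and the most abundant of this list, had -0.26 (SE 0.16, adjusted p = 0.715), and -0.01 without TT-583 and TT-584, which had its highest values (183.3 and 178.8 CPM, against at most 151.6 CPM elsewhere).

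Of 12 further genes tied to resident macrophages, 11 were tested, 3 with a higher and 8 with a lower estimate, with a median of -0.21 and 0 called. Both genes of this list at an unadjusted p under 0.05 were lower. Fcna, which encodes ficolin A, a soluble lectin, stood at 5.19, 5.10, 2.25, 3.24 and 2.99 CPM in the control mice and 1.35, 2.18, 3.08, 1.71 and 1.41 CPM in the HFD+mTAC mice. In 4 of 5 HFD+mTAC mice it was below every control mouse, and the log2 fold change was -0.96 (SE 0.31, adjusted p = 0.384). Without TT-583 and TT-584 it was -0.54 (adjusted p = 0.942). Pf4, platelet factor 4, also a product of platelets, had -0.40 (SE 0.18, adjusted p = 0.597), and Selenop, the most abundant of the list, which encodes a secreted selenium carrier, had 0.10 (SE 0.08, adjusted p = 0.798). Selenop stood at means of 558 and 598 CPM, far above Fcna, and the cells it came from were not tested.

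Among ligands, adaptors and relatives of the receptors, 13 of 15 genes were tested, 8 with a higher and 5 with a lower estimate, with a median of 0.04 and 0 called. Csf1, the ligand of CSF1R, was measured at 65.8, 74.0, 64.6, 78.1 and 65.6 CPM in the control mice and 61.0, 69.3, 61.1, 57.8 and 58.5 CPM in the HFD+mTAC mice. All HFD+mTAC mice but TT-589 lay below the control mice, and the log2 fold change was -0.18 (SE 0.08, adjusted p = 0.606). The other ligand, Il34, had 0.22 (SE 0.21, adjusted p = 0.842). For MERTK, the ligand Gas6 had 0.08 (SE 0.09, adjusted p = 0.885) and the bridging protein Pros1 0.04 (SE 0.12, adjusted p = 0.966). Mfge8, which links phosphatidylserine on dying cells to integrins of the phagocyte, had 0.21 (SE 0.11, adjusted p = 0.664). For CD163, Hp, the haptoglobin that carries haemoglobin to it, had -0.98 (SE 0.60, adjusted p = 0.722), Hpx, the haem carrier haemopexin, -1.68 (SE 0.92, adjusted p = 0.686) and Hmox1, the enzyme that breaks down haem after uptake, 0.22 (SE 0.19, adjusted p = 0.828). Hp and Hpx were at or under 3.55 and 2.11 CPM in every mouse.

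Of 13 genes linked to lipid handling in macrophages, 7 had a higher and 6 a lower estimate, with a median of 0.00659 and 0 called (9 and 4, with a median of 0.05, without TT-583 and TT-584). Lpl, lipoprotein lipase, which cardiomyocytes also make in quantity, was the gene of all 5 lists in which the mice did not overlap. It lay between 9139 and 12317 CPM in control mice and between 7048 and 7970 CPM in HFD+mTAC mice, for a log2 difference of -0.44 (SE 0.09, adjusted p = 0.185 by edgeR, 0.000416 by DESeq2). Its level was far above that of the macrophage genes, and the 6 cardiomyocyte markers also had lower estimates, 6 of 6, with a median of -0.20 and 0 called, whose part in the Lpl value was not tested. Lipa, the acid lipase of lysosomes, had 0.32 (SE 0.13, adjusted p = 0.523), and Apoe, apolipoprotein E, had -0.13 (SE 0.16, adjusted p = 0.902).

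Of 9 genes of recruited monocytes, 7 were tested, 2 with a higher and 5 with a lower estimate, with a median of -0.24 and 0 called. Ccr2, the chemokine receptor that defines these cells, had 0.28 (SE 0.29, adjusted p = 0.868), and Ly6c2, a surface protein of classical monocytes, 0.85 (SE 0.41, adjusted p = 0.623), or 0.55 (adjusted p = 0.976) without TT-583 and TT-584. Il1b, the cytokine interleukin 1 beta, stood at 15.6, 9.35, 3.13, 1.90 and 2.36 CPM in the control mice and 1.86, 1.88, 1.31, 0.341 and 2.64 CPM in the HFD+mTAC mice. The log2 fold change of -2.01 (SE 0.61, adjusted p = 0.358) became -0.62 (adjusted p = 0.966) without TT-583 and TT-584, the highest mice. Thbs1, thrombospondin 1, the most abundant of the list, ranged from 107.3 to 289.4 CPM and from 36.7 to 320.3 CPM in the groups (log2 fold change -0.24, SE 0.48, adjusted p = 0.937, and 0.00896 without TT-583 and TT-584). Its level was far above that of Ccr2 (means of 4.38 and 5.28 CPM), and the cells it came from were not tested.

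**Figure D4:**
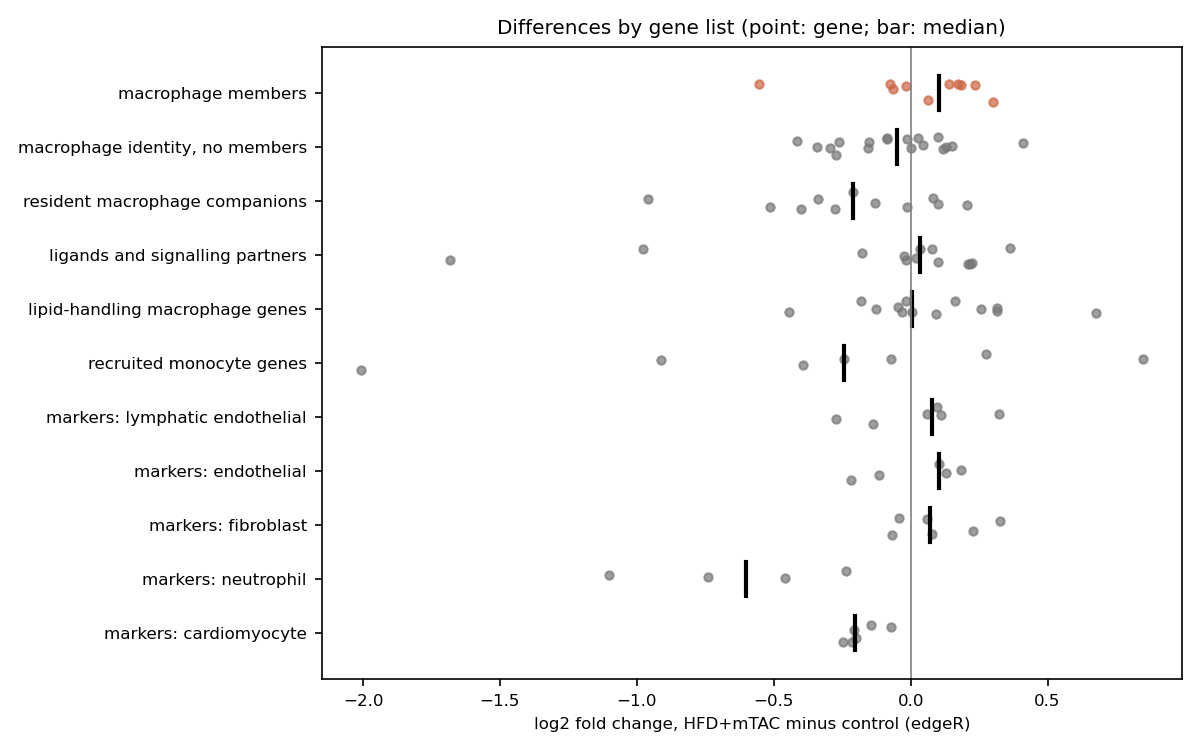
Log2 fold change (HFD+mTAC minus control, edgeR) of each tested gene by list, with the list's median as a bar and the 10 macrophage genes in orange. Medians lie between -0.24 and 0.10 for the 10 genes and the 5 further macrophage and monocyte lists, and the markers of neutrophils and cardiomyocytes lie below 0.

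Markers of other blood and tissue cells were followed in the same mice as summed TPM, as deposited. On this scale control mice TT-583 and TT-584 had the highest totals over the tested genes, which enters the control ranges. Neutrophil markers stood at 3.55 to 7.88 TPM in control mice and 0.483 to 6.99 TPM in HFD+mTAC mice, and 4 of 4 tested had a lower estimate (S100a9 -1.10, adjusted p = 0.519). Dendritic cell markers stood at 0.801 to 1.59 and 0.617 to 0.924 TPM, T and NK cell markers at 0.135 to 0.387 and 0.164 to 0.478 TPM, B cell markers at 0.167 to 0.517 and 0.177 to 0.579 TPM and mast cell markers at 0.356 to 1.77 and 0.276 to 1.58 TPM. Only 2 of 5 dendritic markers passed the filter, Zbtb46 at 0.876 TPM on average and Flt3 at 0.00507 TPM. For T and NK cells it was also 2 of 5. Flt3, Xcr1, Clec9a, Cd209a and all T and NK markers were at 0 in some mice. Fibroblast markers stood at 94.0 to 170.7 and 80.3 to 131.6 TPM, but at 963 to 1351 and 1002 to 1388 CPM. Endothelial markers stood at 43.8 to 75.6 and 38.8 to 64.4 TPM, but at 1487 to 1869 and 1498 to 2113 CPM. Atrial myocyte markers stood at 1.37 to 2.51 and 0.824 to 1.17 TPM. Erythroid markers varied widely within both groups, at 90.2 to 876.6 and 95.4 to 860.9 TPM, and 0 of 5 adipocyte markers passed the filter. No marker was at 0 in every mouse, and of all markers tested 0 were called. The part of these cells in the values of the macrophage genes was not tested.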

How the data were processed

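RNA was extracted from left ventricles of 10 mice, and groups follow the sample labels. Per the labels, a stranded mRNA kit was used, and transcripts were quantified with Salmon 1.6.0. The study's methods name GENCODE transcripts of GRCm38. The read layout differs between labels and methods, and the labels' processing notes name a human genome build.

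The authors deposited estimated counts per gene, summed with tximport and not normalized, with 20.07% of the values fractional. TPM values deposited beside them correct for transcript length and are scaled within each mouse, and the remaining deposited values are average transcript lengths. Of the gene symbols, 27812 matched GENCODE M21, 861 matched through older symbols and 891 did not match. No column belonged to a sample outside the series. Coordinates are from GENCODE M21 on GRCm38.

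After rounding, estimated counts entered edgeR 4.0.16 under R 4.3.3 (TMM, quasi-likelihood test, Benjamini-Hochberg, adjusted p under 0.05, common dispersion 0.0422, no covariate). The test covered nuclear protein-coding genes that had 1 count or more in at least 90% of the mice. Standard errors are the log2 fold change divided by the root of F, and 95% intervals use its degrees of freedom. The labels do not say how the mice were housed or processed together, and p-values measure the spread between these mice. Counting floors of 3 counts cover counting error only. For single values a two-sided exact permutation test ran over 252 arrangements, and correlations with 100000 permutations.

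Alternatives were DESeq2 1.42.0 (its size factors and its Wald test), upper-quartile normalization, limma 3.58.1 on log2(TPM + 1) and log2(TPM + 0.1), no filter, at least 10 counts in 5 mice, transcript lengths as an offset, the robust fit and omission of each mouse. For limma, TPM was first rescaled in each mouse to the same total over the tested genes. Permutation tests, ratios and sums used TPM as deposited. Omission of TT-583 and TT-584 together, also for the ratios to Csf1r, the same with lengths as an offset, and levels per kilobase of the longest coding transcript were added after the data were seen.

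The genes named are the 10 macrophage genes, the 2 genes with the smallest p and the most abundant gene of each of 5 lists, the 6 genes most like the macrophage genes, and others that a result turns on, chosen after their values were seen (C1qa, C1qb, C1qc, Il34, Pros1, Hp, Hpx, Hmox1, Apoe, Ccr2, S100a9 and Tyrobp). The genes and lists were chosen with earlier results of these data known.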

Additional observations from a re-analysis of the deposited data

Results flagged for a closer look

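Csf1r in HFD+mTAC mouse TT-592 lay apart from the other mice of its group. It was 37.81 CPM there, with the next lowest mouse at 46.5 CPM, and the gap divided by the range of the group was 0.755, above the critical value of 0.71 for 5 samples. It was the only 1 of 20 groups tested (10 genes in 2 groups) to lie past this value, and chance alone gives about 1 in 20. The same mouse had the lowest Mrc1 and Cd163 values of its group and, narrowly, the lowest Adgre1 and Lyve1 values. Its library was the nearest to TT-583 and TT-584, with 46.4% mitochondrial counts and a median log2 length ratio of -0.05. The part of this in its values was not tested. Without TT-592, the log2 fold change of Csf1r was 0.26 (unadjusted p = 0.0429, adjusted p = 0.616 by edgeR).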

How the results depend on the processing

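In every alternative run, 0 of the 10 genes were called. Over all genes tested, 8 were called, against 120 with DESeq2's Wald test, 1 with limma at either pseudocount, 1 without a filter, 1 with transcript lengths as an offset, 4 without TT-583 and TT-584, 1 without both and with lengths as an offset, and 1 to 9 when a mouse was left out. Of 210 recomputed fold changes, 191 kept their sign and 19 did not. Csf1r (0.14 to 0.35), Cd68 (0.00784 to 0.28), Cd163 (0.13 to 0.40), Timd4 (-0.75 to -0.28) and Trem2 (0.12 to 0.42) kept their sign in all 21 alternatives, with smallest adjusted p-values of 0.616, 0.7, 0.495, 0.552 and 0.718. Without TT-583 and TT-584 the log2 fold changes of Adgre1, Mrc1 and Lyve1 turned to 0.22, 0.050 and 0.32, and with lengths as an offset as well those of Adgre1, Lyve1 and Mertk were 0.15, 0.32 and -0.017. With lengths as an offset in all mice Mertk was -0.013. When each mouse was left out in turn, Adgre1 ran from -0.15 to 0.038, Mrc1 from -0.088 to 0.067, Lyve1 from -0.22 to 0.15, Mertk from -0.041 to 0.14 and Folr2 from -0.14 to 0.52, and with limma on log2(TPM + 0.1) Folr2 was 1.22. Folr2 turned without TT-587 (-0.14) and without TT-590 (-0.13), and was 0.83 without TT-583 and TT-584. The causes of these turns were not tested. Of the 108 recomputed ratios to Csf1r, 9 changed sign. All moved by less than 1 SD, taken as the larger SD of the groups. Leaving mice out of groups this small cannot move a mean that far, so only the ratios on estimated counts could have exceeded it. No paired analysis was possible because the groups share no replicate numbers. Timd4 and Trem2 rest on 20 to 82 and 24 to 53 estimated counts per mouse, and how much of their error is due to depth was not tested.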

Other observations

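The genes whose levels ran most like the mean standardized level of the 10 macrophage genes over the 10 mice were Ankrd35 (Pearson's r = 0.955), Aldh1a2 (0.945), Mrpl43 (0.912), Yif1a (0.904), Ctu2 (0.861) and Krt10 (0.849). They are the highest of the genes tested and are given as a description with no p, and none belongs to the macrophage, monocyte or marker lists. Aldh1a2 encodes an enzyme of retinoic acid synthesis. Its level was 11.1 CPM on average, with a log2 fold change of 0.18 (adjusted p = 0.861 by edgeR).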
